A study of Homo sapiens with 4 samples.

Results

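The following 10 long noncoding RNAs were measured in IMR90 cells, a line of human fetal lung fibroblasts, after knockdown of HMGB1, an abundant architectural chromatin protein that also binds RNA. They are MALAT1, NEAT1, MEG3, LINC01128 and 6 hosts of small nucleolar RNAs (snoRNAs), namely GAS5, SNHG1, SNHG5, SNHG8, SNHG12 and ZFAS1. They were picked by name, with their levels and differences in these libraries known, and all 10 were found among the 63677 gene rows of the count files and passed the filter on low counts with 15398 genes in all. Control cells received a non-targeting siRNA and knockdown cells an siRNA against HMGB1, both with RNAiMAX for 72 h, and each group held 2 poly(A)-selected libraries, 1 from isolate I90-10 and 1 from isolate I90-79. In both groups I90-10 is replicate 1 and I90-79 is replicate 2, so isolate and replicate cannot be told apart. The study's methods speak of 2 different siRNAs in IMR90, while the labels do not say which siRNA went into which library, and nothing says whether the libraries come from repeated transfections, so the p-values below measure only the spread between these libraries.

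Most snoRNAs of human cells are cut from the introns of a host transcript, after which they guide methylation or pseudouridylation of ribosomal RNA, while the spliced host RNA of genes such as GAS5 is exported and, having no long reading frame, is turned over by nonsense-mediated decay. Several of these hosts begin with a cytosine and a run of pyrimidines, as the messenger RNAs of ribosomal proteins do. MALAT1 and NEAT1 stay in the nucleus, where MALAT1 collects in nuclear speckles, and the long form of NEAT1 is the scaffold of paraspeckles. Neither MALAT1 nor the long form of NEAT1 ends in a canonical poly(A) tail, whereas a short form of NEAT1 does, and these libraries were selected on poly(A). MEG3 is the maternally expressed RNA of the imprinted DLK1-MEG3 cluster. LINC01128 is a spliced intergenic RNA without a well-established role.

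The count files gave 29861687 to 35317010 assigned reads per library. HMGB1 itself was at 181 and 237 counts per 1000000 assigned reads (CPM) in control cells and at 15.96 and 18.9 CPM after knockdown, a 12.0-fold lower level. Of 15 fibroblast markers, 14 lay above 10 CPM in every library, and their summed level was 51696 and 27125 CPM in the control and 44895 and 27900 CPM in the knockdown libraries, so it followed the isolate. Of 4 leukocyte markers, 4 were below 1 CPM throughout, with CD3E at 0 counts. Of 6 epithelial markers 1 was above 10 CPM in every library and 4 were below 1 CPM throughout, among them NKX2-1 at 0 counts. Their sum was 58.6 and 67.2 CPM in control against 78.5 and 98.6 CPM in knockdown cells. It was higher in both knockdown libraries, but the 4 low genes add little to it. Of 3 endothelial markers 1 was above 10 CPM in every library and 1 was below 1 CPM throughout, namely CDH5 at 0 counts. Their sum was 149.9 and 148.6 CPM against 135 and 134 CPM, lower in both knockdown libraries. The part of these marker levels in the differences below was not tested. As these are bulk samples, fewer cells of a kind and less RNA per cell cannot be told apart.

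The starts of the 6 hosts are shown because they are what the family is known for at the level of sequence. Each line gives 100 bases 5′ to 3′ from RefSeq (build GRCh38.p14), 50 before and 50 from the annotated start onward. Where the first base is a C followed by at least 2 pyrimidines, the capitals mark that first run. Otherwise they mark the longest run of C and T in the first 50 transcribed bases that begins with a C.
SNHG12: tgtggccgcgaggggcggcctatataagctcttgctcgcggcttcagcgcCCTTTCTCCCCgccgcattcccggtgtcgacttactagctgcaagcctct
SNHG5: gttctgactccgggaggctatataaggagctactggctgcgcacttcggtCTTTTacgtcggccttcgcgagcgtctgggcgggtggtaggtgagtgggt
ZFAS1: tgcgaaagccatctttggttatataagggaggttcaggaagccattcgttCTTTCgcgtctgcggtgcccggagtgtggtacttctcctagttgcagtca
SNHG1: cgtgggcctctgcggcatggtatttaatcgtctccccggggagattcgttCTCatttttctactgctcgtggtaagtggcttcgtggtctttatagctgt
SNHG8: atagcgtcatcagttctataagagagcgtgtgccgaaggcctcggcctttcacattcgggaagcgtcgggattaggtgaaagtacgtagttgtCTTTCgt
GAS5: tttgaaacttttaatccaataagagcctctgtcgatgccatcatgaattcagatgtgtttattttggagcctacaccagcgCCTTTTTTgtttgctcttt

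On the minus strand these windows lie at chr1:28581824-28581923 (SNHG12), chr6:85678684-85678783 (SNHG5), chr11:62855836-62855935 (SNHG1) and chr1:173868996-173869095 (GAS5), and on the plus strand at chr20:49278592-49278691 (ZFAS1) and chr4:118278712-118278811 (SNHG8). The first run is 11 bases in SNHG12, 5 bases in SNHG5 and ZFAS1 and 3 bases in SNHG1. SNHG8 starts with a C followed by an A, and the GAS5 entry starts with an A and has its longest run, of 8 bases, from base 32. A first C followed by at least 4 pyrimidines was thus seen in SNHG12, SNHG5 and ZFAS1, and in 4.07% of the 35116 RefSeq windows. The word TATAA, searched on both strands in the 50 bases before the start, was found in SNHG12, SNHG5, ZFAS1 and SNHG8, and in 6.08% of all windows. Both are descriptions of letters in these windows and nothing was read from them about the differences below. MALAT1 and MEG3 also have entries, none of which starts with such a run. TATAA, however, was also found in 1 MALAT1 entry, not in the other, and in every MEG3 entry. No window was at hand for NEAT1 and LINC01128.

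In the gene models of the count files (hg19), the hosts are compact. The row of GAS5, ENSG00000234741, spans chr1:173833038-173838020 on the minus strand, and 72.9% of that span is counted as exon. The row of SNHG1 spans chr11:62619460-62623386, minus strand, with 96.6% counted as exon, so that almost any read from its introns is assigned to SNHG1. The corresponding shares are 82.8% for SNHG8 (chr4:119199864-119200978, plus strand) and 75.96% for SNHG12 (chr1:28905050-28909495, minus strand). SNHG5 (chr6:86370710-86388451, minus strand) and ZFAS1 (chr20:47894715-47905797, plus strand) have longer introns, with 12.4% and 9.90% counted as exon.
RefSeq places 11 snoRNA genes inside GAS5, 8 inside SNHG1, 4 inside SNHG12, 3 inside ZFAS1, 2 inside SNHG5 and 1 inside SNHG8, and none inside MALAT1, NEAT1, MEG3 or LINC01128. Only 5 of these have a row of their own within a host in the count files, and none of the 5 shares an exon base with its host.

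**Figure D1:**
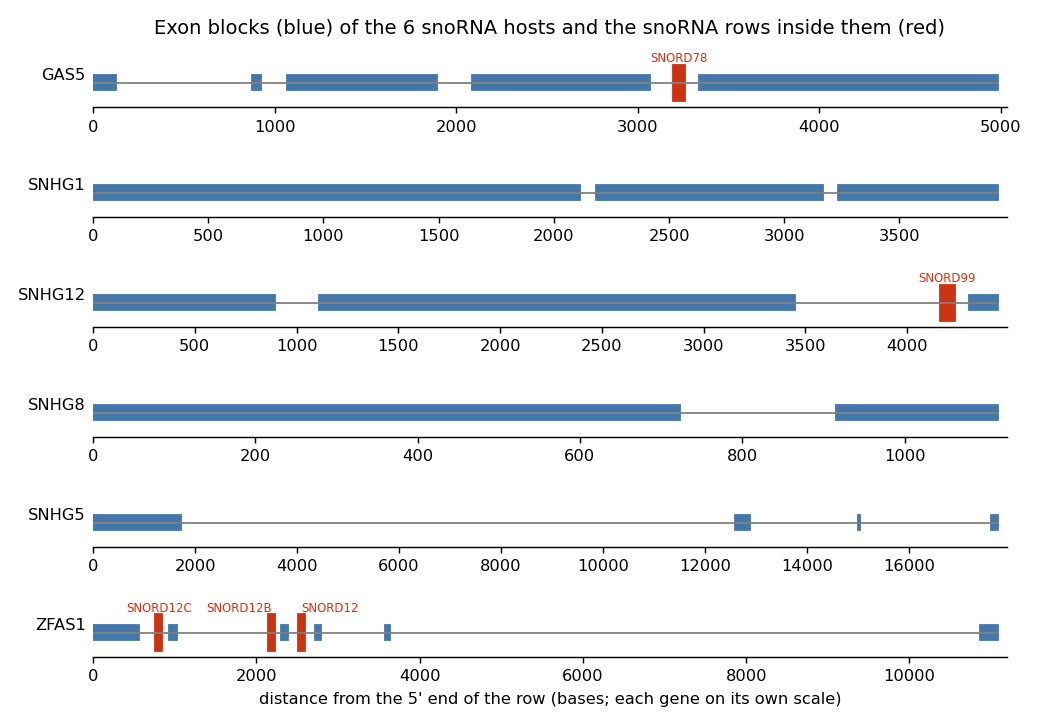
Exon blocks of the 6 snoRNA hosts as the count files define them (blue) and the snoRNA rows inside them (red), against the distance from the 5′ end in bases, each gene on its own scale. The 5 snoRNA rows lie in the gaps between blocks, 3 of them in ZFAS1, and SNHG1 is covered to 96.6%.

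The 5 snoRNAs with a row are printed because their reads were kept apart from those of the host. They were read from the GRCh37 genome, 5′ to 3′, with the box C word TGATGA (where present) and the last box D word CTGA in capitals.
SNORD12C: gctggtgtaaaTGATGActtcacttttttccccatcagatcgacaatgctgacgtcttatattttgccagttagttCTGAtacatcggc
SNORD12B: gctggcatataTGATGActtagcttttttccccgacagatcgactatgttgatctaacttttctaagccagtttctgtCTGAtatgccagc
SNORD12: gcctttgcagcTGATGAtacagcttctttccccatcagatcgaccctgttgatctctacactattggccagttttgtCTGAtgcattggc
SNORD78: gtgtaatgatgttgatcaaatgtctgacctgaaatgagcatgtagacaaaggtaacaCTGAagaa
SNORD99: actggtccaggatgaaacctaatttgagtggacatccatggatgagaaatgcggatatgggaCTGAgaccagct

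The 3 snoRNAs of ZFAS1, at chr20:47895477-47895565, chr20:47896856-47896946 and chr20:47897220-47897309, are related in sequence and carry both words at nearly the same place. SNORD78 lies at chr1:173834760-173834824 in GAS5, and SNORD99 at chr1:28905261-28905334 in SNHG12. Reads on these rows were few. SNORD12 counted 13 and 14 reads in control cells, against 4 and 4 after knockdown. SNORD12B had 4 and 10 against 8 and 4, and SNORD12C 7 and 2 against 2 and 4. SNORD78 had 8 and 16 counts against 2 and 10, and SNORD99 1 and 3 against 3 and 0. Over the 4 libraries, each row held 0.165% to 0.576% of the reads of host and snoRNA row together, and mature snoRNAs, which have no poly(A) tail, were not measured by these libraries.

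Overlap with other genes was slight for most of the 10. ZFAS1 shares 249 of its 1097 exonic bases (22.7%) with ZNFX1, which starts head to head on the opposite strand. MALAT1 (chr11:65265233-65273940, plus strand, 8708 exonic bases in 1 block) shares 396 bases (4.55%) with an antisense row that had 0 counts in every library. MEG3 (chr14:101245747-101327368, plus strand) shares 543 of 15769 bases (3.44%) with antisense rows at 0 counts. GAS5 shares 42 bases with GAS5-AS1 and SNHG12 shares 2 with TRNAU1AP, while NEAT1 (chr11:65190245-65213011, plus strand, 22767 bases in 1 block), SNHG1, SNHG5, SNHG8 and LINC01128 (chr1:762988-794826, plus strand, 8525 exonic bases in 10 blocks) share none. The strand setting of the counting was not given in the sources used here, so sense and antisense reads in these stretches may not have been told apart. Pieces of 50 bases from the exons that recur in transcripts of genes elsewhere made up at most 1.27% of any of the 10, in SNHG12.

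Together the 10 RNAs took 0.0996% and 0.0969% of the reads assigned in control cells, and after knockdown 0.0638% and 0.0693%. They made up 16.5% and 15.2% of the reads on lncRNA rows in control cells, and 12.0% in either knockdown library. XIST, TSIX and rows on chromosome Y were left out of the lncRNA rows for these shares and for the ranks below. The 10 were not equally abundant in CPM, which is not corrected for length. By mean CPM in control cells MEG3 ranked 3, GAS5 5, SNHG5 7, MALAT1 10, NEAT1 11, ZFAS1 13, SNHG1 17 and SNHG8 23 among 12751 lncRNA rows, whereas LINC01128 ranked 73 and SNHG12 88. In knockdown cells LINC01128 ranked 31.

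**Figure D2:**
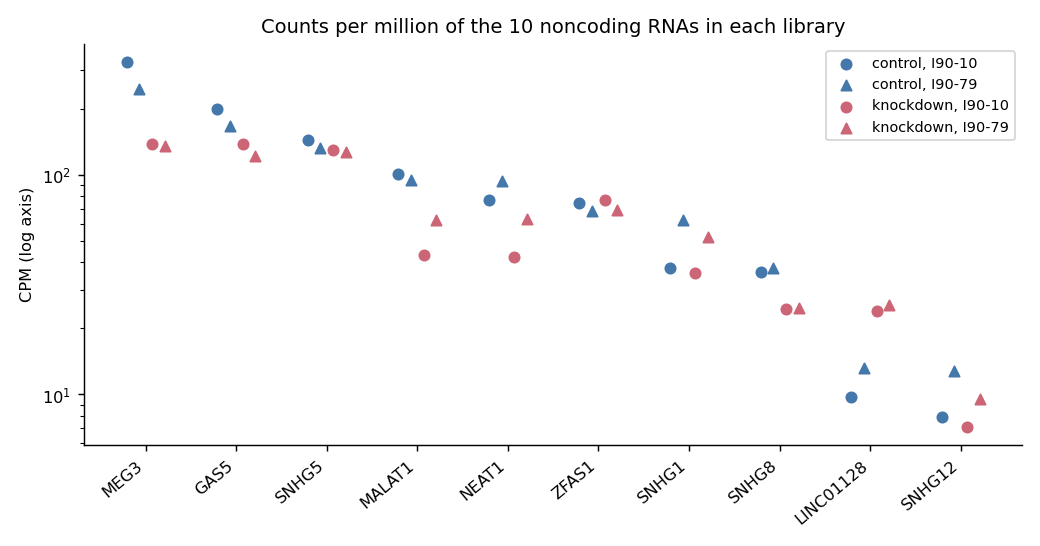
CPM of each of the 10 RNAs in each library on a log axis, with control libraries in blue, knockdown libraries in red, isolate I90-10 as circles and I90-79 as triangles. MEG3, GAS5, SNHG5, MALAT1, NEAT1 and SNHG8 lie lower in both knockdown libraries than in both control libraries, LINC01128 lies higher, and SNHG1, SNHG12 and ZFAS1 overlap.

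Across the comparison of knockdown with control cells, which asks how these RNAs stand when HMGB1 is depleted, MEG3, MALAT1, NEAT1, SNHG8, GAS5 and SNHG5 were lower in both knockdown libraries than in either control library, and LINC01128 was higher. Over all genes tested, 30.2% had both knockdown libraries below both controls and 29.8% had them above. A call required an adjusted p below 0.01 together with a log2 difference beyond 0.6 in either direction. The unblocked edgeR fit called 0 of the 10, where 31 of 15398 genes (0.201%) were called, and 6 of the 10 had an unadjusted p below 0.05, as 4359 of all genes did. With the isolate as a replicate block, MEG3, MALAT1 and NEAT1 were called down and LINC01128 up, beside 7.84% of all genes called down and 6.68% called up (14.5% in either direction). DESeq2 without the block called MEG3, MALAT1 and LINC01128, beside 1542 of all genes. Since the 10 were chosen with these differences in view, the values are a description and nothing is read from the counts. With 2 libraries against 2, an exact two-sided permutation test of a single RNA cannot go below p = 0.333.

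Of the nuclear RNAs, MALAT1 was at 100.5 and 95.0 CPM in control cells (isolates I90-10 and I90-79) and at 43.2 and 62.6 CPM after knockdown. The groups did not overlap, and the I90-10 knockdown library was the lowest. The fitted log2 difference of MALAT1 was -0.88 ± 0.20 (SE, n = 2 per group), with -1.22 in isolate I90-10 and -0.60 in I90-79, and with the block it was -0.91 ± 0.15 (SE). NEAT1, encoded upstream of MALAT1 on the same strand of chromosome 11, was at 76.9 and 93.8 CPM in control and at 42.3 and 62.9 CPM in knockdown cells. Again neither knockdown library reached the control level. The log2 difference of NEAT1 was -0.70 ± 0.22 (SE, n = 2 per group), with -0.86 and -0.58 by isolate, and with the block it was -0.72 ± 0.11 (SE). Its single row covers the short and the long form, which cannot be told apart. Leaving out knockdown replicate 1 brought the difference of NEAT1 to -0.44 and leaving out knockdown replicate 2 brought it to -1.01.

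MEG3 had the highest CPM of the 10 in control cells, at 326 and 246, and was at 139 and 135 CPM in knockdown cells. The 2 knockdown libraries were close to each other while the control libraries were spread, and the groups lay far apart. Its log2 difference was -1.06 ± 0.17 (SE, n = 2 per group), a level 2.09-fold lower, with -1.23 and -0.86 by isolate and -1.05 ± 0.11 (SE) with the block. MIR770, a microRNA gene within MEG3, had a row of its own with 33 and 17 counts in control and 12 and 15 in knockdown cells.

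LINC01128 was the one RNA of the 10 that stood clearly higher in knockdown cells, at 23.9 and 25.7 CPM against 9.77 and 13.2 CPM in control cells. All knockdown values exceeded all control values. Its log2 difference was 1.11 ± 0.19 (SE, n = 2 per group), a 2.15-fold higher level, with 1.29 and 0.96 by isolate and 1.12 ± 0.14 (SE) with the block. LINC00115, which lies 86 bases from LINC01128, was at 0.681 and 0.407 CPM against 0.554 and 0.832 CPM, and was not called.

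Among the snoRNA hosts, GAS5, whose RNA is named for its accumulation in growth arrest, was at 199 and 168 CPM in control and at 138 and 121 CPM in knockdown cells. The groups did not overlap, with the higher value in isolate I90-10 of both. The log2 difference of GAS5 was -0.50 ± 0.14 (SE, n = 2 per group), with -0.53 and -0.47 by isolate. SNHG8, the host of an H/ACA snoRNA, was at 36.2 and 37.7 CPM against 24.4 and 24.7 CPM, with little spread within either group. Its log2 difference was -0.59 ± 0.12 (SE, n = 2 per group), with -0.56 and -0.61 by isolate. GAS5 and SNHG8 met neither criterion of a call in the unblocked fit, and with the block they passed on the adjusted p but not on the size of the difference.

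SNHG5, the host of SNORD50A and SNORD50B, was at 144 and 132 CPM in control and at 130 and 127 CPM in knockdown cells. These ranges did not overlap but nearly touched, and the log2 difference was -0.10 ± 0.11 (SE, n = 2 per group). ZFAS1 was at 74.8 and 68.2 CPM against 76.8 and 69.1 CPM, with a log2 difference of 0.03 ± 0.12 (SE, n = 2 per group). In ZFAS1 the isolates differed more than the conditions did, and the groups overlapped.

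SNHG1, which carries 8 box C/D snoRNAs, was at 37.6 and 62.0 CPM in control and at 35.7 and 51.9 CPM in knockdown cells. SNHG12 was at 7.93 and 12.8 CPM in control and at 7.10 and 9.54 CPM in knockdown cells. In both RNAs the I90-79 library was higher than the I90-10 library of the same condition, and control and knockdown values were interleaved. The log2 differences were -0.19 ± 0.30 for SNHG1 and -0.32 ± 0.30 for SNHG12 (SE, n = 2 per group). By isolate (I90-10 and I90-79) they were -0.08 and -0.26 for SNHG1 and -0.16 and -0.42 for SNHG12. With the block they were -0.17 ± 0.10 for SNHG1 and -0.30 ± 0.16 for SNHG12 (SE). Without control replicate 2, which left only I90-10 among the controls, the unblocked difference turned its sign, to 0.22 for SNHG1 and 0.07 for SNHG12.

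**Figure D3:**
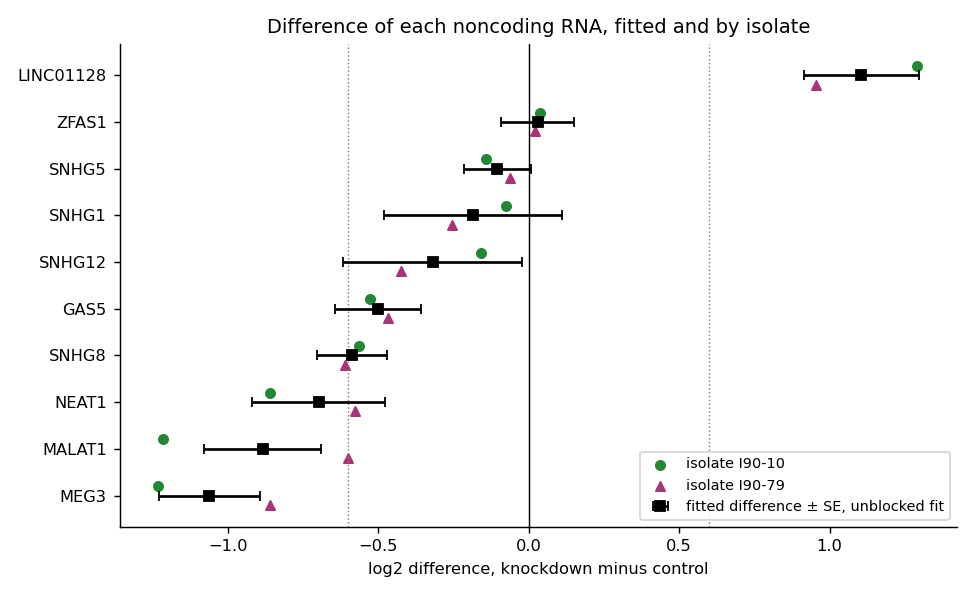
Log2 difference (knockdown minus control) of each RNA, with black squares and bars for the unblocked edgeR fit and its SE, green circles for isolate I90-10, purple triangles for I90-79 and dotted lines at 0.6 in either direction. Both isolates lie on the same side of 0 for all 10, from -1.06 in MEG3 to 1.11 in LINC01128 in the fit, and the isolates are farthest apart in MALAT1.

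In all 10 the difference had the same sign in both isolates, as it had in 12058 of 15398 genes tested. The median log2 difference was -0.41 over the 10 and -0.0054 over all genes. Because the 10 were chosen with these differences known, both comparisons with all genes are descriptions only. Whether a difference depended on the isolate was not tested, since 4 libraries leave no residual degree of freedom for that term.

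The difference between the isolates is another contrast than that of knockdown with control, although the RNAs were chosen with the values of all 4 libraries known, so it is no independent evidence either. As isolate and replicate number are the same split, a difference named here by isolate may equally be one between replicates. With condition in the model, edgeR's quasi-likelihood test called 0 of the 10 between I90-79 and I90-10, where 257 of 15398 genes (1.67%) were called. SNHG1 came nearest, with a log2 difference of 0.63 ± 0.10 (SE) and an adjusted p of 0.0139 in edgeR, and was higher in I90-79 in 2 of 2 conditions. DESeq2 called it, among 450 genes called in all, as did edgeR without the filter on low counts, among 913. NEAT1 followed with 0.43 ± 0.11 (SE) and an adjusted p of 0.0589, and SNHG12 with 0.56 ± 0.16 (SE) and an adjusted p of 0.0786. For the other 7 the adjusted p ranged from 0.217 (GAS5) to 0.872 (SNHG8). GAS5 had a log2 difference of -0.22 and was higher in I90-10 under both conditions.

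Profiles over the 4 libraries were compared by the Euclidean distance between centred log2 CPM values. SNHG1 and SNHG12 were each other's nearest among the 10, at a distance of 0.152, and SNHG5 and ZFAS1 likewise at 0.154. GAS5 and SNHG8 paired at 0.275, and MALAT1 and NEAT1 at 0.323. MEG3 was nearest to MALAT1 at 0.481. LINC01128 had no close neighbour, with ZFAS1 nearest at 1.18.

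Levels of different RNAs can be set side by side only per length. In CPM per kilobase of exon, the mean of the control libraries was 65.2 for ZFAS1, 62.6 for SNHG5, 50.5 for GAS5, 40.02 for SNHG8, 18.1 for MEG3, 13.1 for SNHG1, 11.2 for MALAT1, 3.75 for NEAT1, 3.07 for SNHG12 and 1.35 for LINC01128. Short hosts therefore led, and MEG3, which led by CPM, came after 4 of them. The control ranges overlapped between ZFAS1 and SNHG5, between MEG3 and SNHG1, between SNHG1 and MALAT1 and between NEAT1 and SNHG12, so those neighbours cannot be ordered by range. Compared within each library, ZFAS1 lay above SNHG5 in all 4. NEAT1 lay above SNHG12 in both control libraries but below it in both knockdown libraries. The order of MEG3 and SNHG1, and that of SNHG1 and MALAT1, differed between the control libraries. Dividing the same CPM by the unshared exonic bases alone raised ZFAS1 from 65.8 to 85.2 CPM per kilobase (mean of all 4 libraries). Reads in the shared stretch were not taken out for this value. For NEAT1 the row length is that of the long form, so a value per kilobase understates the short form. As MALAT1 and the long form of NEAT1 lack a canonical poly(A) tail, these poly(A)-selected libraries may understate both beside the hosts.

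**Figure D4:**
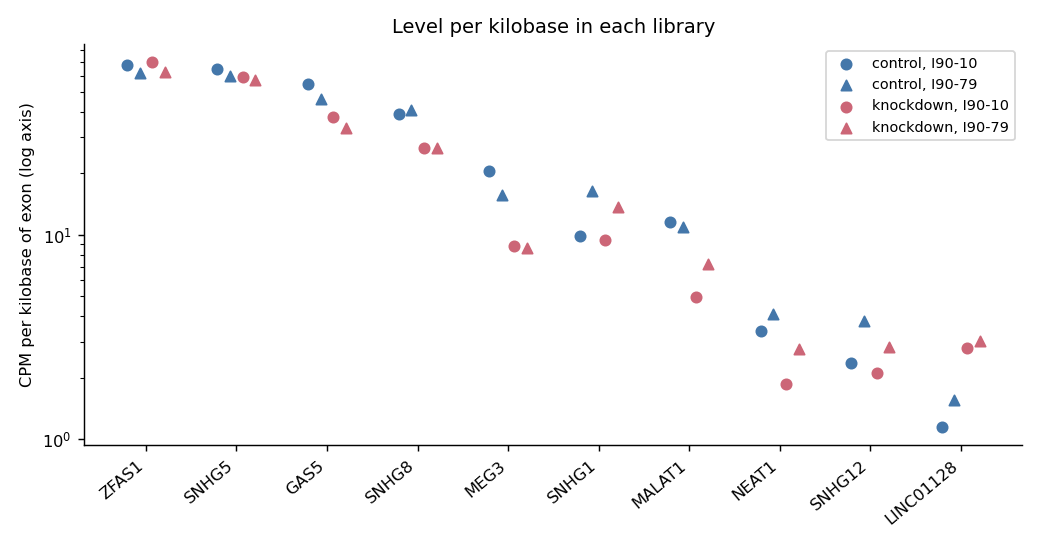
CPM per kilobase of exon of each RNA in each library on a log axis, with colours and symbols for condition and isolate. ZFAS1, SNHG5, GAS5 and SNHG8 form the upper part in control cells (40.02 to 65.2), and LINC01128 is lowest at 1.35 in control cells but reaches 2.91 in knockdown cells.

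Genes that neighbour the 10 within 50 kb were looked up after the values were seen. PRSS12, a serine protease gene lying 215 bases from SNHG8, was at 227 and 121 CPM in control and at 117 and 78.8 CPM in knockdown cells. Its log2 difference with the isolate as a block was -0.79 ± 0.11 (SE), with an adjusted p of 0.00132 in edgeR. Without the block it was -0.83 ± 0.34 (SE), with an adjusted p of 0.191 in edgeR, and was not called. Among the tested neighbours of the 10, PRSS12 was the only one called in either edgeR fit. It was also called between isolates, lower in I90-79 (log2 difference -0.74 ± 0.11, SE, adjusted p = 0.00983 in edgeR). SLC3A2, 132 bases from SNHG1 and the heavy chain of amino acid transporters, was at 239 and 299 CPM against 231 and 337 CPM and, like SNHG1, was higher in I90-79. ZNFX1, which overlaps ZFAS1, was at 166 and 151 CPM against 188 and 206 CPM (log2 difference 0.31, blocked adjusted p = 0.0502 in edgeR). ZBTB37, which overlaps the span of GAS5 on the other strand, was at 14.1 and 13.8 CPM against 15.6 and 16.8 CPM. Around NEAT1, the 2 genes tested within that distance (FRMD8 and SLC25A45) were not called.

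Related genes were described by lists, and with the block 14.5% of all genes were called. Among 22 other snoRNA host lncRNAs tested, 1 (4.55%) was called with the block, and the median log2 difference was -0.13. SNHG29, a host of box C/D snoRNAs, fell with the block, from 309 and 286 CPM to 158 and 127 CPM (log2 difference -1.07 ± 0.10, SE, adjusted p = 0.000216 in edgeR, against 0.0233 without the block). SNHG14, the large RNA of the imprinted SNRPN region, had a log2 difference of -0.50 and SNHG16 one of -0.35, and neither was called. Of 31 other lncRNAs, 5 fell and 2 rose with the block (22.6%), with a median of -0.11. TUG1 fell from 239 and 217 CPM to 131 and 149 CPM (blocked adjusted p = 0.00201), and CYTOR from 49.7 and 39.1 CPM to 27.4 and 25.5 CPM (blocked adjusted p = 0.00178). OIP5-AS1 was at a log2 difference of -0.53 and was not called. Over the 1401 other lncRNA rows of the annotation that were tested, 30 rose and 32 fell with the block (4.43%), and the median was -0.083.

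Among 19 paraspeckle proteins, which assemble on NEAT1, 2 fell and 1 rose with the block, with a median of -0.076. This share of 15.8% is near that of all genes and is no result about the list. SFPQ, one of the proteins that bind NEAT1 directly, fell from 331 and 387 CPM to 212 and 230 CPM (blocked log2 difference -0.70 ± 0.09, SE, adjusted p = 0.00116 in edgeR). NUDT21, a subunit of the cleavage factor that selects poly(A) sites, fell from 127 and 131 CPM to 79.4 and 89.6 CPM (blocked adjusted p = 0.00216), and the zinc finger protein gene ZNF24 rose from 56.3 and 76.8 CPM to 120 and 151 CPM (blocked adjusted p = 0.000207). NONO, the partner of SFPQ, was at a log2 difference of 0.40 and was not called.
Of 19 nuclear speckle and MALAT1 processing proteins, 3 fell with the block and 0 rose, again 15.8%, with a median of 0.0085. SRRM1, a splicing coactivator, fell from 86.7 and 87.3 CPM to 38.6 and 40.6 CPM (blocked adjusted p = 0.000159). SRSF2, a splicing factor of the speckles, had a blocked log2 difference of -0.80 and METTL16, a methyltransferase that binds the triple helix of MALAT1, one of -0.60, and both were called.

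Of 18 proteins of snoRNPs, 0 were called by edgeR in either fit, and 2 had an unadjusted p below 0.05 without the block, where 4359 of 15398 genes did. A positive difference was seen in 14 of 18, with a median of 0.084, and in 7642 of 15398 genes. Only 10 of the 18 had the same sign in both isolates, beside 12058 of 15398 genes. The groups did not overlap in 33.3% of the list and in 59.9% of all genes. TGS1, which trimethylates the caps of small RNAs, NOP10 of the H/ACA core and the assembly factor NAF1 had log2 differences of 0.42, 0.44 and 0.38. Of 19 nonsense-mediated decay factors 1 (5.26%) was called with the block. SMG8, a regulator of the SMG1 kinase, fell from 32.4 and 40.3 CPM to 15.1 and 15.3 CPM (blocked adjusted p = 0.000262), while SMG9 and the decapping enzyme gene DCP2 had log2 differences of 0.47 and -0.50 and were not called. The median of the decay factors was -0.14. Of the 6 genes listed for the MEG3 cluster 3 were tested and 0 called in either edgeR fit, and 0 of these 3 had an unadjusted p below 0.05 without the block. MEG9 was at 4.83 and 2.47 CPM against 2.32 and 1.70 CPM, DLK1 at 1.23 and 1.87 against 1.90 and 2.24 CPM, and MEG8 at 0.953 and 1.66 against 1.45 and 1.28 CPM. MIR493HG, a microRNA host RNA 33739 bases from MEG3 that was not in the list, was at 3.40 and 2.14 CPM against 0.554 and 1.06 CPM. Its log2 difference was -1.77 ± 0.45 (SE) without the block and -1.75 ± 0.41 (SE) with it, with adjusted p = 0.0731 and 0.0139 in edgeR, so it was not called. MIR770, within MEG3, had a log2 difference of -0.80 and was not called.

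**Figure D5:**
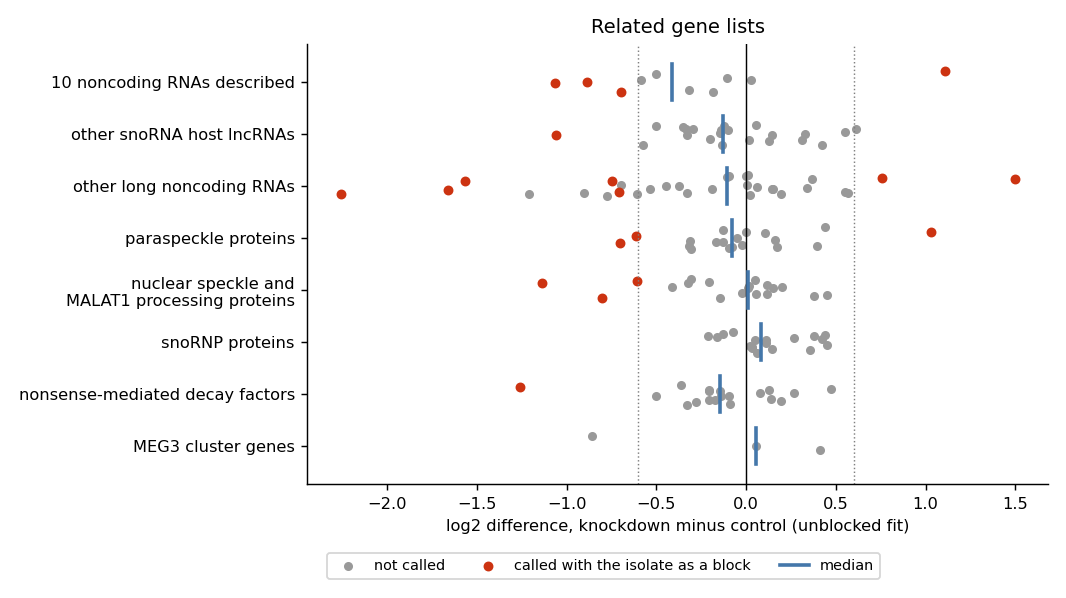
Log2 difference (knockdown minus control, unblocked fit) of each gene in the lists, with red points for genes called when the isolate is a block, grey points for the rest, blue bars for medians and dotted lines at 0.6. The list medians lie between -0.14 and 0.084, the median of the 10 RNAs, chosen with their differences known, is -0.41, and 15 of the 130 list genes are red.

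By position, 237 other genes tested hold a row named as a snoRNA on the same strand within their span, some of them copies of snoRNA families. Of these, 1 was called without the block and 25 with it (11 up and 14 down, or 10.5%), with a median log2 difference of 0.022. AMMECR1 fell from 56.3 and 59.6 CPM to 15.3 and 15.2 CPM (unblocked log2 difference -1.93 ± 0.12, SE, adjusted p = 0.00787 in edgeR). With either knockdown library left out, 0 of all genes tested were called, AMMECR1 included. PRKAA1, a catalytic subunit of AMP-activated kinase, and TOMM20, a receptor of mitochondrial protein import, missed the threshold without the block (adjusted p = 0.0104 and 0.0107 in edgeR) and passed with it (adjusted p = 6.7e-05 and 9.5e-05 in edgeR). The 205 protein-coding hosts had a median of 0.065 and the 22 noncoding ones -0.13, and the other 10 had another gene type or none.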

How the data were processed

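Poly(A) RNA from IMR90 cells was sequenced with TruSeq libraries, and the authors mapped reads to hg19 with STAR and deposited raw counts per gene from featureCounts. Tool versions, strand setting and the handling of read pairs are not given in the sources used here. The authors' own comparisons were not used. Groups and isolates came from the labels. Rows were named by Ensembl ID through a table that gave 55665 of 63677 rows a symbol. The 10 RNAs and all lists were chosen with earlier results of these data known.

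Counts were fitted with edgeR 4.0.16 in R 4.3.3 (filterByExpr, TMM scaling, quasi-likelihood test, Benjamini-Hochberg over 15398 genes) with condition alone, and a call required an adjusted p below 0.01 with a log2 difference beyond 0.6 in either direction. CPM values use TMM-scaled library sizes. Isolates pair the libraries, since each contributed to both groups, and the difference between isolates correlated between conditions over genes (r = 0.464), so values from a fit with isolate as a block (the replicate block) are printed beside results whose call changes, for the 10 RNAs as differences with SE. Alternatives were DESeq2 1.42.0, RUVs with 1 factor before DESeq2, DESeq2 size factors, other filters and thresholds, and each library left out. DESeq2 with the block was added after seeing the data. Each list and the position-based hosts name the 3 genes with the smallest p in the unblocked fit. The other genes named were picked after their values were seen. Protein-coding and noncoding hosts were split by the GENCODE gene type. List symbols without a matching row were not analysed here.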

Additional observations from a re-analysis of the deposited data

Results flagged for a closer look

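MEG8, a noncoding RNA of the MEG3 cluster, had differences of opposite sign in the 2 isolates, with a log2 difference between knockdown and control of 0.61 in I90-10 and -0.37 in I90-79. The gene lay between 0.953 and 1.66 CPM in the 4 libraries, and the difference between isolates was not tested.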

How the results depend on the processing

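Of the 10 RNAs, 0 were called without the block. With the isolate as a replicate block 4 were called, beside 2235 of all genes. The same 4 were called with the block in DESeq2 (2058 of all genes) and with RUVs and DESeq2 (1595). They were also called in the unblocked edgeR fit without the filter on low counts (2393). DESeq2 alone called 3 (1542 of all genes). An adjusted p below 0.05 gave 2, and the number over all genes at that threshold was not at hand. Leaving out 1 library leaves a group with a single library, so for these 4 only the differences are given. They ranged from -1.25 to -0.85 for MEG3 and from -1.17 to -0.65 for MALAT1. For NEAT1 they ranged from -1.01 to -0.44 and for LINC01128 from 0.90 to 1.34. Between isolates, edgeR called 0 (257 of all genes). DESeq2 (450 of all genes), edgeR without the filter (913) and an adjusted p below 0.05 each called 1, which was SNHG1 in all of these. Leaving out a library could not be fitted, as no residual degree of freedom remains. Of the 130 list genes, 0 were called, against 15 with the replicate block, 14 with the block in DESeq2, 14 (of 135 tested) without the filter, 11 with DESeq2, 11 with RUVs and DESeq2, 9 at an adjusted p below 0.05 and 0 to 2 with 1 library left out (2 without either control library). Of 237 host genes by position 1 was called, against 25 with the replicate block, 24 with the block in DESeq2, 24 (of 263 tested) without the filter, 19 with DESeq2, 18 with RUVs, 16 at an adjusted p below 0.05 and 0 to 7 with 1 library left out (7 of 242 and 6 of 240 tested without control replicates 1 and 2, and 0 without either knockdown library, where 0 of all genes were called). The numbers of all genes called, given above by setting, belong beside these counts too. The cause was not tested.

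The log2 difference kept its sign in all 70 values for the 10 RNAs from alternatives with all libraries and moved past its SE in 2 of them. With 1 library left out, which leaves 1 group with 1 isolate in an unblocked fit, 5 of 40 values turned. Without control replicate 2 they were SNHG1 at 0.22, SNHG12 at 0.0703 and ZFAS1 at -0.036, and without knockdown replicate 1 SNHG1 at 0.057 and ZFAS1 at -0.0504 (ranges -0.50 to 0.22, -0.62 to 0.0703 and -0.0504 to 0.11). With 2 libraries per group, the small differences of SNHG5, ZFAS1, SNHG1 and SNHG12 could not be told from the spread.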
